A study of Mus musculus with 84 samples.

Results

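The 9 interferon-stimulated genes Irf7, Isg15, Usp18, Ifit1, Ifit2, Ifit3, Oasl2, Rsad2 and Zbp1 were examined in mouse colon epithelium, as 9 of the 25494 gene rows of the RNA-seq count table and as the peaks of H3K27ac, H3K4me1 and HNF4α that overlapped each gene extended by 10 kb on either side. The genes were chosen by name, with earlier results of these data known. RNA-seq was done on 12 libraries from male C57BL/6 recipient mice, 3 in each of 4 groups, which the methods describe as germ-free animals given fecal bacteria of male donors. HFDHFB mice ate a high fat diet (HFD) and received bacteria of HFD-fed donors (high fat bacteria, HFB), HFDLFB mice ate the HFD and received bacteria of donors on a low fat diet (LFD), and LFDHFB and LFDLFB mice ate the LFD with the same 2 kinds of bacteria. No recipient group went without a transplant, and the labels give no age. H3K27ac, a histone mark found at enhancers and promoters in use, was profiled in the same 4 groups (2 libraries for HFDHFB, 3 for each other group), and H3K27ac, H3K4me1 (a mark of enhancers, active or poised) and the nuclear receptor HNF4α in C57BL/6 mice kept long-term on either diet. These had 3 libraries per sex, diet and histone mark and 2 per diet, males only, for HNF4α. For the ChIP-seq, epithelium was released from the colon with EDTA, whereas the RNA of recipients came from cells scraped off the colon, so it can hold RNA of other layers. In such bulk samples, fewer cells of a type and less RNA per cell cannot be told apart. The labels do not tie libraries to animals beyond a replicate number.

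Interferons are secreted when cells sense foreign or misplaced nucleic acid, and in the gut also in response to commensal bacteria. Type I and type III interferons bind their receptors and act through receptor-bound kinases on transcription factors that bind the interferon-stimulated response element in the promoters of target genes. Epithelial cells of the gut respond mainly to type III interferon, and many of the target genes are also expressed at a low level without infection. Among the 9 genes, Irf7 encodes a transcription factor that amplifies interferon production, Isg15 a ubiquitin-like modifier, and Usp18 the protease that removes ISG15 from proteins and dampens signalling at the type I receptor. The Ifit genes encode proteins that bind foreign RNA, Oasl2 a member of the oligoadenylate synthetase family, Rsad2 the antiviral enzyme viperin, and Zbp1 a sensor of Z-form nucleic acid that can trigger necroptosis.

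The genes lay at 7 places in the mm9 genome. Ifit2 (chr19:34625184-34651024, plus strand), Ifit3 (chr19:34658019-34663472, plus strand) and Ifit1 (chr19:34715379-34724499, plus strand) form part of a cluster, and the extended windows of Ifit2 and Ifit3 shared 13006 bp, so peaks there count for both. The others were Irf7 (chr7:148449082-148452323, minus strand), Isg15 (chr4:155573533-155574927, minus strand), Oasl2 (chr5:115346943-115362254, plus strand), Rsad2 (chr12:27127608-27141317, minus strand), Usp18 (chr6:121195924-121220935, plus strand) and Zbp1 (chr2:173032114-173044423, minus strand). No other gene of the table overlapped any of them, but the window of Irf7 held Phrf1 and Cdhr5, that of Isg15 Agrn and AW011738, and that of Zbp1 Pmepa1. Ifit1 and Ifit3 have close copies in the cluster, among them Ifit1bl1 and Ifit1bl2, and reads shared with a copy could have been assigned to either, so their values are uncertain to that extent.

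The 250 bases before each gene start were read from mm9 and searched on both strands for the core of the interferon-stimulated response element, GAAA followed by any 2 bases and again GAAA, counting overlapping matches. A match was found before 6 of the 9 genes, compared with 774 of 24655 gene starts of the table (3.14%). These 6 sequences are shown because they carry the element that the genes' name refers to. Each runs 5′ to 3′ on the strand of its gene, from 10 bases before the first match to 21 bases before the gene start, with the matches in capitals.
Ifit1 (chr19:34715265-34715358, plus strand): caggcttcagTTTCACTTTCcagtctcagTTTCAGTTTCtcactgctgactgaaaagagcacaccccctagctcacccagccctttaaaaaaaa
Ifit3 (chr19:34657853-34657998, plus strand): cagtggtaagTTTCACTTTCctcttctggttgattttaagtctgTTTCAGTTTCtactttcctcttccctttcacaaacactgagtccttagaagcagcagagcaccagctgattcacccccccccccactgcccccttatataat
Isg15 (chr4:155574948-155575015, minus strand): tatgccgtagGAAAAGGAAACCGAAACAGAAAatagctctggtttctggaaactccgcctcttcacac
Usp18 (chr6:121195831-121195903, plus strand): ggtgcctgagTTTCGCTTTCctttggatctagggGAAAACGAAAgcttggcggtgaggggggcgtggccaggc
Rsad2 (chr12:27141338-27141447, minus strand): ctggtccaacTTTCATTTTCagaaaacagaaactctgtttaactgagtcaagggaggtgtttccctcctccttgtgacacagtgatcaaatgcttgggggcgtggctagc
Zbp1 (chr2:173044444-173044533, minus strand): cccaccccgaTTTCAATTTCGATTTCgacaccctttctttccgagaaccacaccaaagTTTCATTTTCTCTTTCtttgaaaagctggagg

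Ifit1 and Ifit3 held the same 2 decamers, TTTCACTTTC and TTTCAGTTTC, which began 104 and 85 bases before the start of Ifit1 and 156 and 122 bases before that of Ifit3. Isg15 had 3 matches that overlapped in 1 run, beginning 78 bases before the start. Zbp1 had 4 matches in 2 overlapping pairs, Usp18 had 1 match on each strand and Rsad2 had 1 match, 120 bases before its start. Ifit2, Oasl2 and Irf7 had no match, which says only that these letters are not in this window.

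The depth of the RNA-seq was 39904191 to 48026846 counted reads per library, and levels are given in CPM, the usual count of a gene's reads relative to its library's total, with that total adjusted by the TMM factor of edgeR. Before that scaling 1 read was worth 0.0208 to 0.0251 CPM. Each of the 9 genes passed the filter on low counts, with 67 to 342 reads per library for Usp18 and 5857 to 11107 for Irf7 at the extremes. Per kb of GENCODE vM1 exons, Irf7 had the highest level, with a median over the 12 libraries of 59.3 CPM per kb. It was followed by Isg15 (23.3), Oasl2 (15.1), Ifit1 (10.99), Zbp1 (7.60), Ifit3 (5.47), Ifit2 (2.08), Rsad2 (1.69) and Usp18 (1.59), medians of the same quantity. The ranges of Ifit2 (1.07 to 4.14), Rsad2 (0.955 to 3.05) and Usp18 (0.871 to 4.20) overlapped almost fully, so their order is not settled, whereas that of Irf7 (42.7 to 79.4) lay above those of all genes except the highest library of Isg15 (11.1 to 43.8).

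The transcription factor Irf7 had 135, 129 and 162 CPM in the 3 HFDHFB libraries and 239, 144 and 175 CPM in HFDLFB. It had 160, 219 and 240 CPM in LFDHFB and 184, 212 and 191 CPM in LFDLFB. HFDHFB replicates 1 and 2 were below all 9 libraries of the other groups, and the third was within their range.

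**Figure D1:**
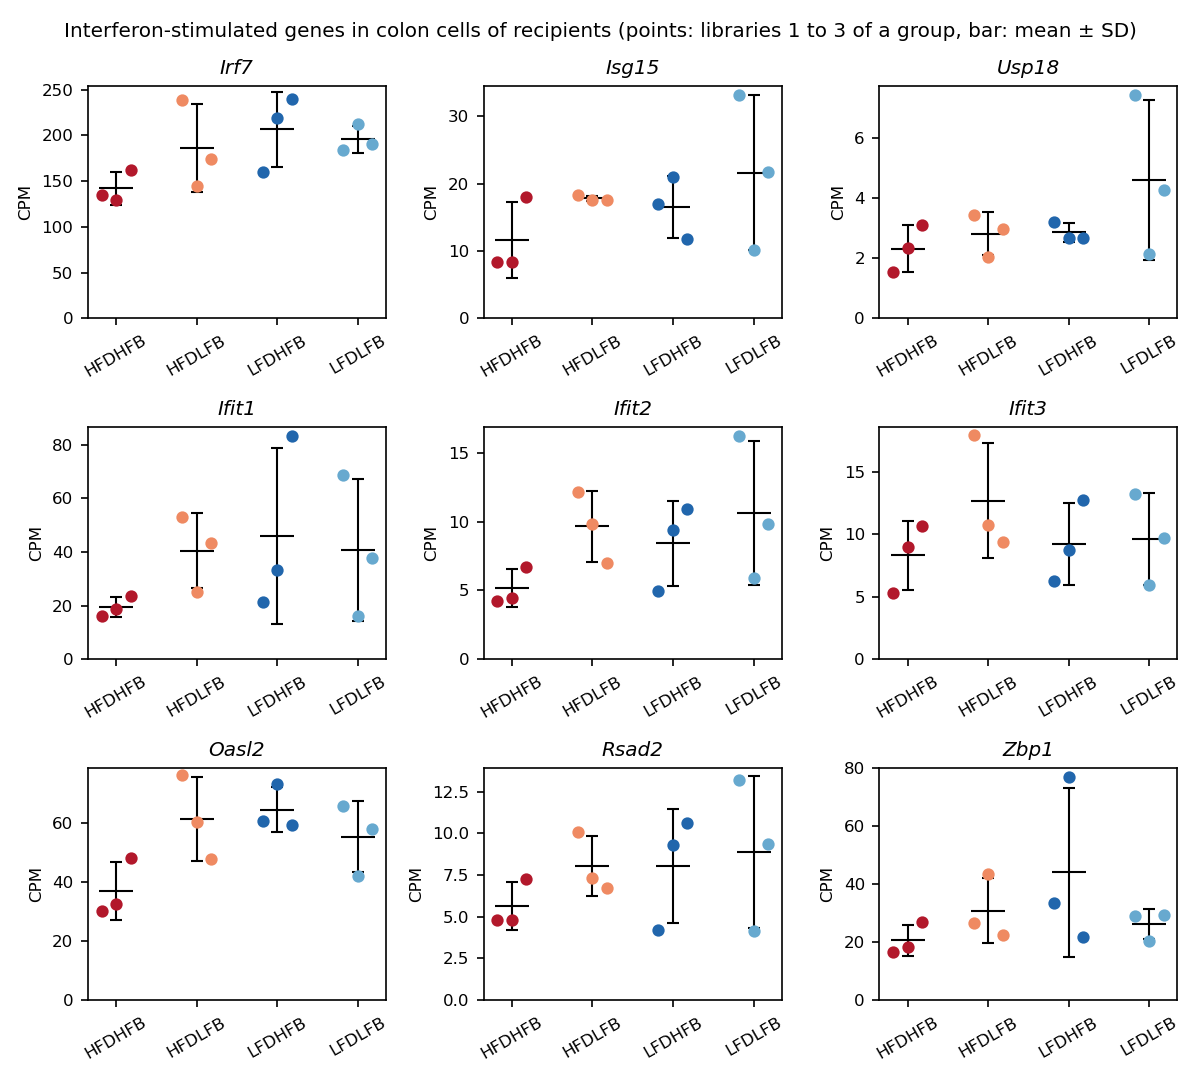
Level of each of the 9 genes in CPM (vertical axes, starting at 0) in the 12 RNA-seq libraries of recipients. Points are libraries, left to right replicates 1 to 3, and bars give the mean ± SD of 3. HFDHFB has the lowest mean of the 4 groups for every gene, and its points overlap those of other groups for most genes.

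The modifier Isg15 had 8.42, 8.39 and 18.1 CPM in HFDHFB against 18.3, 17.5 and 17.6 CPM in HFDLFB. In the LFD-fed groups it had 17.0, 20.9 and 11.8 CPM in LFDHFB and 33.1, 10.1 and 21.7 CPM in LFDLFB. Its spread was thus 17.8 ± 0.410 CPM (SD, n = 3) in HFDLFB but 21.6 ± 11.53 CPM (SD, n = 3) in LFDLFB, and the third HFDHFB library lay among the HFDLFB libraries. Usp18, which reverses ISG15 conjugation, had 1.54, 2.32 and 3.08 CPM in HFDHFB and 3.45, 2.03 and 2.96 CPM in HFDLFB. It had 3.20, 2.67 and 2.68 CPM in LFDHFB and 7.43, 2.12 and 4.25 CPM in LFDLFB, where 1 library held the highest value of all 12.

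Among the RNA-binding Ifit proteins, Ifit1 had 15.95, 18.8 and 23.6 CPM in HFDHFB and 52.9, 25.1 and 43.4 CPM in HFDLFB, so these 2 groups did not overlap. In LFDHFB it had 21.4, 33.2 and 83.1 CPM and in LFDLFB 68.6, 16.2 and 37.6 CPM. The range of these LFD-fed libraries held all HFD-fed libraries except the HFDHFB library at 15.95 CPM. Ifit2 had 4.21, 4.48 and 6.73 CPM in HFDHFB against 12.1, 9.84 and 6.96 CPM in HFDLFB, again without overlap, though the nearest libraries were 6.73 and 6.96 CPM. It had 4.98, 9.38 and 10.9 CPM in LFDHFB and 16.2, 5.90 and 9.79 CPM in LFDLFB. Ifit3 overlapped between all groups, with means of 8.32 ± 2.76 CPM in HFDHFB, 12.7 ± 4.61 in HFDLFB, 9.25 ± 3.28 in LFDHFB and 9.62 ± 3.65 in LFDLFB (SD, n = 3 each).

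Oasl2 had 30.2, 32.6 and 48.3 CPM in HFDHFB, 76.1, 60.3 and 47.7 CPM in HFDLFB, 60.7, 73.3 and 59.4 CPM in LFDHFB and 65.7, 42.1 and 58.0 CPM in LFDLFB. The HFDHFB libraries were all below the LFDHFB libraries, and 2 of the 3 were below every other library. Rsad2, the gene of viperin, had means of 5.63 ± 1.43 CPM in HFDHFB, 8.03 ± 1.79 in HFDLFB, 8.04 ± 3.39 in LFDHFB and 8.89 ± 4.55 in LFDLFB (SD, n = 3 each), with overlap between all groups. The sensor Zbp1 had 16.8, 18.4 and 26.9 CPM in HFDHFB, 26.8, 43.7 and 22.4 CPM in HFDLFB, 33.4, 77.1 and 21.9 CPM in LFDHFB and 29.1, 20.5 and 29.5 CPM in LFDLFB. Its highest value came from 1 LFDHFB library that was not the highest of the 12 for any other of the genes.

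The comparison of HFDHFB with HFDLFB asks what the donor's diet changed in HFD-fed recipients. All 9 genes had a lower fitted level in HFDHFB, with a median log2 fold change of −0.61. Over all 15893 genes tested the median was −0.00, and 50.3% were below 0. The 9 genes varied together within groups, with a median Pearson's r of 0.62 over pairs of genes. Their shared direction is therefore not 9 independent observations, and the share of all genes below 0 does not measure how unusual it is. None of the 9 passed an adjusted p of 0.05 in edgeR, where 0% of all genes did. An unadjusted p under 0.05 was found for 2 of the 9, both lower, compared with 1441 genes (9.07%) in either direction and 4.22% lower. These were Oasl2, at a log2 fold change of −0.73 (SE 0.23, edgeR adjusted p = 0.495), and Ifit2, at −0.91 (SE 0.40, edgeR adjusted p = 0.531). With 1 library omitted this count was 1 to 4, given here with the share of all genes in either direction. It was 1 without HFDHFB replicate 1 (13.1%), HFDHFB replicate 2 (4.76%), HFDLFB replicate 1 (7.39%) or LFDLFB replicate 3 (8.16%). Without HFDHFB replicate 3 it was 4 (6.35%). Ifit1 had the lowest estimate, −1.06 with a 95% interval from −2.27 to 0.15, and Usp18 the one nearest to 0, −0.28 with an interval from −1.21 to 0.65. The groups did not overlap for 2 of the 9, Ifit1 and Ifit2, both lower in HFDHFB, as for 4.9% of all genes in that direction. DESeq2 on the same counts called 80 genes but none of the 9, 3 of which had an unadjusted p under 0.05, compared with 8.91% of all genes in DESeq2.

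**Figure D2:**
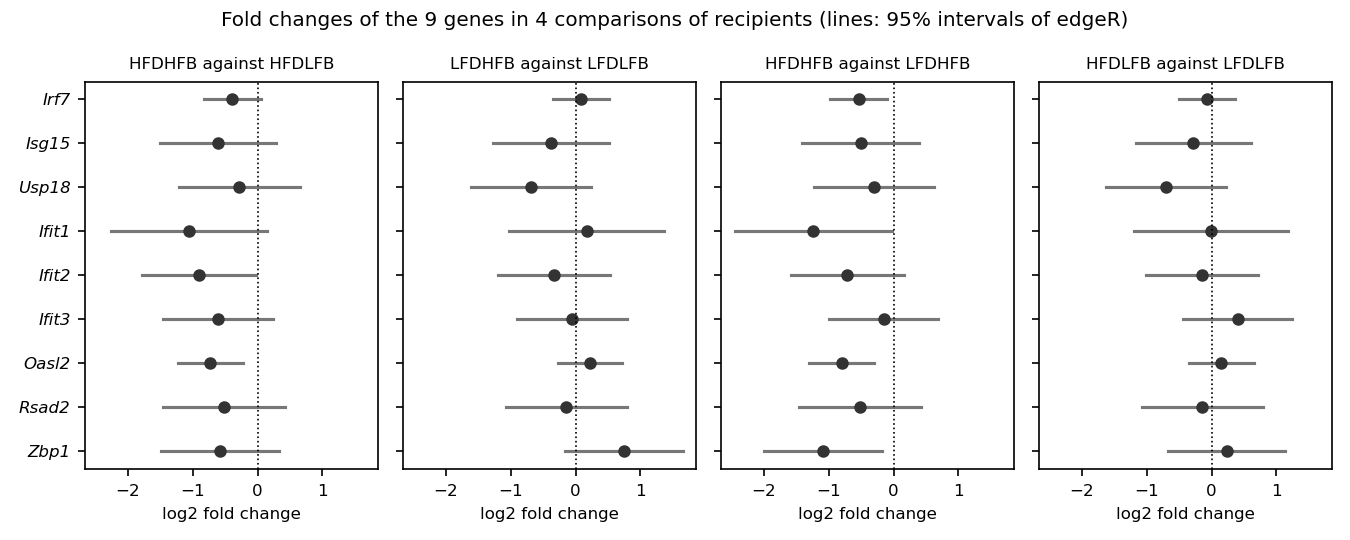
Log2 fold changes of the 9 genes (horizontal axes) in 4 comparisons of recipients. Points are edgeR estimates and lines their 95% intervals. All 9 points lie below 0 in both comparisons that involve HFDHFB, and the points lie on both sides of 0 in the other 2.

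The comparison of HFDHFB with LFDHFB asks what the recipient's diet changed with the same HFB donors. It shares the HFDHFB libraries with the comparison above, so the direction of the one is not independent of the other. All 9 genes again had lower levels in HFDHFB, with a median log2 fold change of −0.54 and 54.7% of all genes below 0. None passed an adjusted p of 0.05 in edgeR (0% of all genes), and DESeq2 called 126 genes but none of the 9. An unadjusted p under 0.05 was found for 4, all lower, compared with 1186 genes (7.46%) in either direction and 2.21% lower. This count of 4 was 1 without HFDHFB replicate 1 (13.2% of all genes), 1 without HFDHFB replicate 2 (4.08%) and 2 without LFDHFB replicate 3 (8.77%). For Oasl2 the log2 fold change was −0.80 (SE 0.23, edgeR adjusted p = 0.377), and its groups did not overlap, as for 3.55% of all genes in that direction. For Irf7 it was −0.54 (SE 0.20, edgeR adjusted p = 0.543), for Zbp1 −1.09 (SE 0.42, adjusted p = 0.578) and for Ifit1 −1.24 (SE 0.55, adjusted p = 0.664). The values of Zbp1 and Ifit1 each rested on 1 LFDHFB library: Zbp1 was at −0.45 without replicate 2 and Ifit1 at −0.49 without replicate 3. Ifit3 was closest to 0, at −0.15, with an interval from −0.998 to 0.69.

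Neither comparison without HFDHFB placed the genes on 1 side, but how they were split depended on single libraries. In LFDHFB against LFDLFB, the effect of the donor on the LFD, 4 of the 9 had higher and 5 lower levels, with a median log2 fold change of −0.06 (46.5% of all genes were below 0), and no gene of the 9 separated the groups, as 10.8% of all genes did. Without LFDLFB replicate 1, 1 of the 9 was lower (median 0.26, with 45% of all genes below 0). Without LFDHFB replicate 3, 7 were lower (median −0.36, with 50.7% of all genes below 0). With all libraries, the extremes were Zbp1 at 0.74 (interval −0.17 to 1.65) and Usp18 at −0.69 (interval −1.61 to 0.23). Without LFDHFB replicate 2, Zbp1 was at 0.091, and Usp18 was at −0.15 without LFDLFB replicate 1 and at −1.04 without LFDLFB replicate 2. None of the 9 had even an unadjusted p under 0.05, compared with 592 genes (3.72%), and no gene was called by edgeR (0%) or DESeq2. In HFDLFB against LFDLFB, the effect of the diet with LFB donors, 3 were higher and 6 lower, with a median of −0.07 (49.3% of all genes were below 0), and again none separated the groups (11.7% of all genes). Here 2 of the 9 were lower without LFDLFB replicate 1 (median 0.32, with 46.2% of all genes below 0). Without LFDLFB replicate 2, 7 were lower (median −0.39, with 47.8% of all genes below 0). With all libraries, the extremes were Ifit3 at 0.40 (interval −0.44 to 1.24) and Usp18 at −0.71 (interval −1.63 to 0.22). With 1 library omitted, Usp18 ranged from −1.05 to −0.16 and Ifit3 from 0.067 to 0.73. Again none of the 9 had an unadjusted p under 0.05, compared with 847 genes (5.33%), and edgeR called 0% and DESeq2 9 genes, none among the 9.

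The difference between the donor effects on both diets was tested as the interaction of diet and bacteria. The donor effect was more negative on the HFD for 8 of the 9 genes, all but Usp18, compared with 54.3% of all genes, and the median difference in log2 fold change was −0.56. This median was −0.25 without HFDLFB replicate 1, −0.29 without LFDLFB replicate 2, −0.35 without LFDHFB replicate 3 and −0.91 without LFDLFB replicate 1. With HFDLFB replicates 1 and 2 left out together, an alternative chosen after seeing the data, it was −0.22. None passed an adjusted p of 0.05 in edgeR (0% of all genes), and DESeq2 called 72 genes but none of the 9. An unadjusted p under 0.05 was found for 2, both more negative, compared with 1794 genes (11.3%) in either direction and 4.95% more negative. These were Oasl2, with a difference of −0.95 (SE 0.32, edgeR adjusted p = 0.386), and Zbp1, with a difference of −1.32 (SE 0.58, edgeR adjusted p = 0.437). Without LFDHFB replicate 2, the difference of Zbp1 was −0.71. Of the cell type markers described below, all 7 of mesothelium were also more negative (median −2.29, 7 with an unadjusted p under 0.05). So were all 8 of adipocytes (median −4.55, 7 with p under 0.05) and of T cells (median −0.94, 3 with p under 0.05). In the other direction went 7 of 8 of epithelium (median 0.23) and 7 of 8 of smooth muscle (median 0.76). The part of these cells in the differences of the 9 genes was not tested.

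The genes varied together across libraries, also within groups. For each gene, log2 CPM was centred and scaled over the 12 libraries, and the 9 values of a library were averaged. This mean was −1.42, −1.07 and −0.09 in HFDHFB, 0.89, 0.06 and −0.05 in HFDLFB, −0.38, 0.67 and 0.52 in LFDHFB and 1.20, −0.79 and 0.46 in LFDLFB. In HFDHFB replicates 1 and 2, none of the 9 genes was above its own mean, and in LFDLFB replicates 1 and 3 all 9 were. LFDLFB thus held the highest library of all and the third lowest, and the third HFDHFB library was the fifth lowest.

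**Figure D3:**
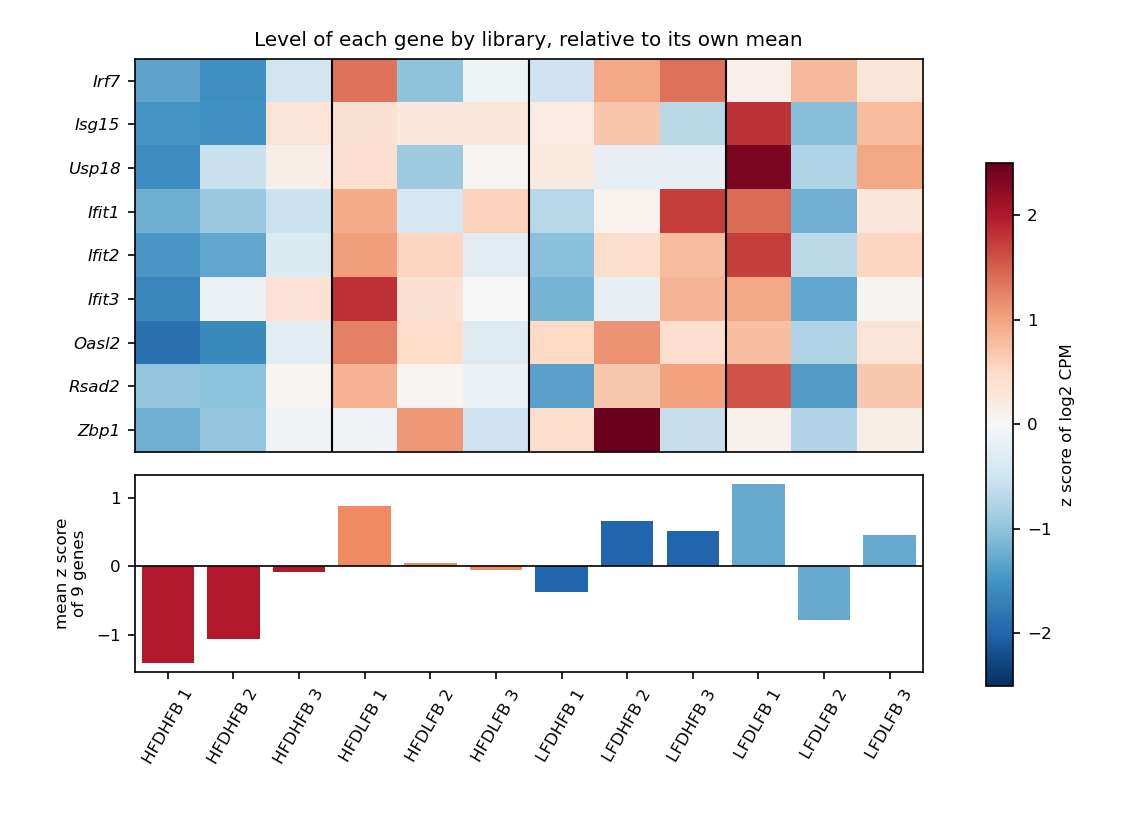
The upper panel gives the level of each gene (rows) in each library (columns, grouped as HFDHFB, HFDLFB, LFDHFB and LFDLFB) as a z score of log2 CPM, and the lower panel the mean z score of the 9 genes. HFDHFB libraries 1 and 2 have the lowest means, −1.42 and −1.07, and LFDLFB library 1 the highest, 1.20.

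Over the 36 pairs of genes, Pearson's r across the 12 libraries ran from 0.15 to 0.93 with a median of 0.64, and 27 pairs exceeded 0.5. With the group means taken out, the median was 0.62, so the shared variation was present among mice of the same group. Ifit2 followed the mean of the other 8 most closely (r = 0.93), then Rsad2 (0.89) and Oasl2 (0.87), and Zbp1 (0.43) and Irf7 (0.58) least. These are descriptions over 12 libraries that share depth and cell makeup within a library.

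The non-member genes with the most similar pattern, ranked by r with the mean z score among 15884 genes, were Irgm2 (r = 0.93), an immunity-related GTPase, Gm12250 (0.89), Mx2 (0.86), an interferon-induced dynamin-like GTPase, Flt1 (0.86), a VEGF receptor of endothelium, and Ezh1 (0.86), a histone methyltransferase. Irgm2 had 21.8, 22.4 and 23.8 CPM in HFDHFB, 37.2, 30.3 and 24.8 in HFDLFB, 25.2, 34.7 and 29.8 in LFDHFB and 37.6, 23.8 and 33.6 in LFDLFB. The least similar were Nufip1 (r = −0.92), Dancr and Ndufaf4. Of the 30 genes most alike, 9 were on one of the pathway lists described next, and the median r over all genes was −0.01.

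The other genes of the pathway were counted from lists chosen by their known function, with earlier results of these data known. Of 9 interferon ligand genes, 8, among them Ifnb1, Ifnl2 and Ifnl3, had no read in any library, which allows up to 3 reads or 0.0625 to 0.0752 CPM per library, and Ifng had 37 reads in all 12 together. The receptors were present. Ifnar1 had group means of 47.0 to 51.6 CPM, Ifnlr1, the type III receptor chain, 19.6 to 23.97 CPM, and Ifngr1 465 to 593 CPM. In HFDHFB against HFDLFB no listed gene passed an adjusted p of 0.05 in edgeR. For the counts that follow, 50.3% of all genes tested were lower in HFDHFB and 9.07% had an unadjusted p under 0.05 in either direction. All 6 receptor genes had lower levels in HFDHFB, with a median log2 fold change of −0.15 and none with an unadjusted p under 0.05. The 4 genes of ISG15 conjugation were all lower (median −0.36, 1 with p under 0.05), and of 7 other interferon regulatory factors 4 were (median −0.16, none with p under 0.05). Of 13 nucleic acid sensing genes, 8 were lower (median −0.10, 2 with p under 0.05), and of 5 partners of ZBP1 in cell death 3 were (median −0.02, 1 with p under 0.05).

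The 2 large lists of interferon targets also leaned to lower levels in HFDHFB. Over all genes tested, 50.3% were lower than in HFDLFB and 9.07% had an unadjusted p under 0.05. The lists were measured in the same libraries as the 9 genes, so their counts are not independent observations. Of 34 tested targets of type I and III interferon other than the 9, 29 were lower than in HFDLFB, with a median of −0.27 and 5 with an unadjusted p under 0.05. Of 23 tested targets of interferon gamma and MHC class I genes, 22 were lower, with a median of −0.44 and 9 with p under 0.05. The 2 with the largest differences, chosen after their values were seen, were Ifi27l2a at −2.02 (SE 0.69, adjusted p = 0.496) and Cxcl9, a chemokine, at −1.93 (SE 0.69, adjusted p = 0.499). Against LFDHFB, with which HFDHFB is shared, 26 of the 34 (median −0.28, 7 with p under 0.05) and 21 of the 23 (median −0.36, 1 with p under 0.05) were lower. Of all genes tested, 54.7% were lower there and 7.46% had p under 0.05. In LFDHFB against LFDLFB the same lists stood at 17 of 34 (median −0.01) and 10 of 23 (median 0.08) lower, and in HFDLFB against LFDLFB at 15 of 34 (median 0.03) and 10 of 23 (median 0.19). Of all genes tested, 46.5% were lower in the former comparison and 49.3% in the latter.

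Markers of other cell types also had unequal levels in HFDHFB and HFDLFB, some lists lower and some higher in HFDHFB. Over all genes tested, 50.3% were lower in HFDHFB and 9.07% had an unadjusted p under 0.05. Summed over 7 detected mesothelial markers, the level was 49.7 to 102 CPM in HFDHFB, but 405 and 505 CPM in HFDLFB replicates 1 and 2 and 97.5 CPM in replicate 3. All 7 had lower levels in HFDHFB (median log2 fold change −2.37, 7 with an unadjusted p under 0.05), and so had all 8 adipocyte markers (median −3.08, 6 with p under 0.05), whose sum was 32.7 to 415 CPM in HFDHFB and 339 to 2956 CPM in HFDLFB. All 8 markers of T cells were lower as well (median −0.47, 1 with p under 0.05), with sums of 22.3 to 43.9 against 28.8 to 70.3 CPM. So were all 8 of macrophages and myeloid cells (median −0.51, none with p under 0.05), with sums of 235 to 251 against 214 to 427 CPM. All 8 of endothelium were lower too (median −0.50, 3 with p under 0.05), with sums of 33.4 to 64.4 against 47.5 to 102 CPM. Of 8 epithelial markers 7 were higher (median 0.14; sums of 13435 to 16081 against 11024 to 14229 CPM), and of 7 markers of absorptive colonocytes 5 were lower (median −0.15). Other lists were higher or mixed in HFDHFB. All 8 smooth muscle markers were higher (median 0.77, none with p under 0.05; sums of 2139 to 7616 against 1185 to 5403 CPM), as were 5 of 8 of enteric neurons and glia (median 0.25), 4 of 7 of plasmacytoid dendritic cells (median 0.13, with the defining marker Siglech at 0.685 to 3.11 CPM over all libraries), 3 of 8 of B and plasma cells (median −0.09) and 3 of 8 of fibroblasts (median −0.15). The part of these cells in the levels of the 9 genes was not tested. An alternative chosen after the marker sums were seen left out HFDLFB replicates 1 and 2. The fitted level of all 9 genes was then lower in HFDHFB than in the 1 HFDLFB library left (median −0.36). HFDHFB replicate 3 was above that library for Ifit3, Isg15, Oasl2, Usp18, Rsad2 and Zbp1, so for these genes the lower level came from HFDHFB replicates 1 and 2. The mean z score of the 9 genes was −0.09 in HFDHFB replicate 3 and −0.05 in HFDLFB replicate 3.

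**Figure D4:**
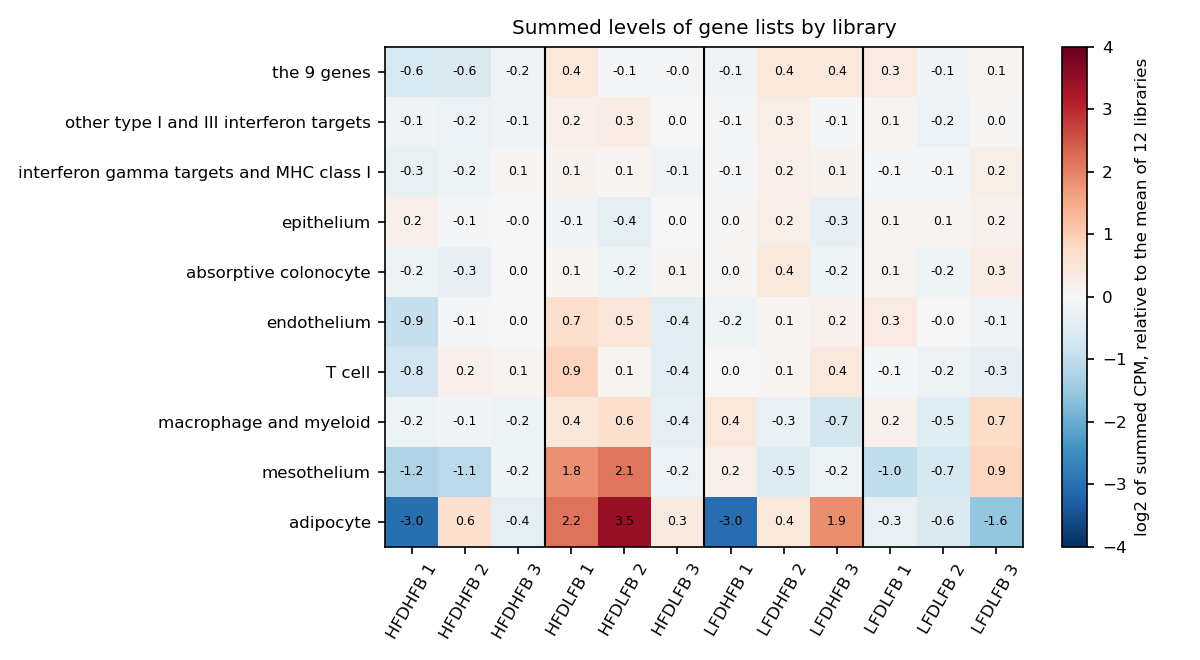
Summed CPM of a selection of the gene lists (rows) in the 12 RNA-seq libraries (columns), as log2 relative to the mean of the libraries, with the value printed in each cell. The mesothelial and adipocyte lists are highest in HFDLFB libraries 1 and 2, while the epithelial list varies little between libraries.

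Against LFDHFB, the other comparison in which all 9 genes were lower, the mesothelial and adipocyte medians were nearer to 0. Over all genes tested, 54.7% were lower in HFDHFB than in LFDHFB and 7.46% had an unadjusted p under 0.05. All 7 mesothelial markers (median −0.60), all 8 adipocyte markers (median −1.25) and all 8 endothelial markers (median −0.25) had lower levels in HFDHFB, none with an unadjusted p under 0.05, and 6 of 7 markers of absorptive colonocytes did (median −0.38). In the other direction, all 8 smooth muscle markers (median 0.53, none with p under 0.05), 6 of 7 of plasmacytoid dendritic cells (median 0.40, 1 with p under 0.05) and 6 of 8 of fibroblasts (median 0.26, none with p under 0.05) were higher. LFDHFB replicate 3 stood apart from the other libraries on the first principal component of all genes and held the highest Ifit1 and Irf7. Without it, 8 of the 9 genes remained below 0, with a median of −0.48, and Ifit3 was at 0.15. Across the 12 libraries, the mean z score of the 9 genes had Pearson's r of 0.76 with the summed interferon gamma targets, 0.70 with the endothelial, 0.66 with the absorptive colonocyte, 0.40 with the mesothelial and −0.14 with the epithelial list, as a description. It was 0.69 with the type I and III targets, 0.68 with nucleic acid sensing, 0.51 with T cells, 0.43 with adipocytes and −0.49 with B and plasma cells. These are a selection of the lists.

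At the chromatin level, all 9 windows held an H3K27ac peak and an H3K4me1 peak in every library, as did 57.7% (11 recipient libraries) and 58.3% (12 libraries of the long-term diets) of all gene windows for H3K27ac and 69.6% for H3K4me1. An H3K27ac peak lay within 500 bp of the gene start of 8 of the 9 genes, all but Ifit3, in all 12 libraries of the long-term diets, and of 7 of the 9, all but Ifit3 and Ifit2 (9 of 11), in all 11 recipient libraries, compared with 44.0% and 44.1% of all genes. For H3K4me1 this held for 7 of the 9 in all 12 libraries, all but Ifit3 and Usp18 (11 of 12), compared with 32.4% of all genes. The peak lists hold no read counts, so the depth behind them is unknown and only presence and width can be compared.

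**Figure D5:**
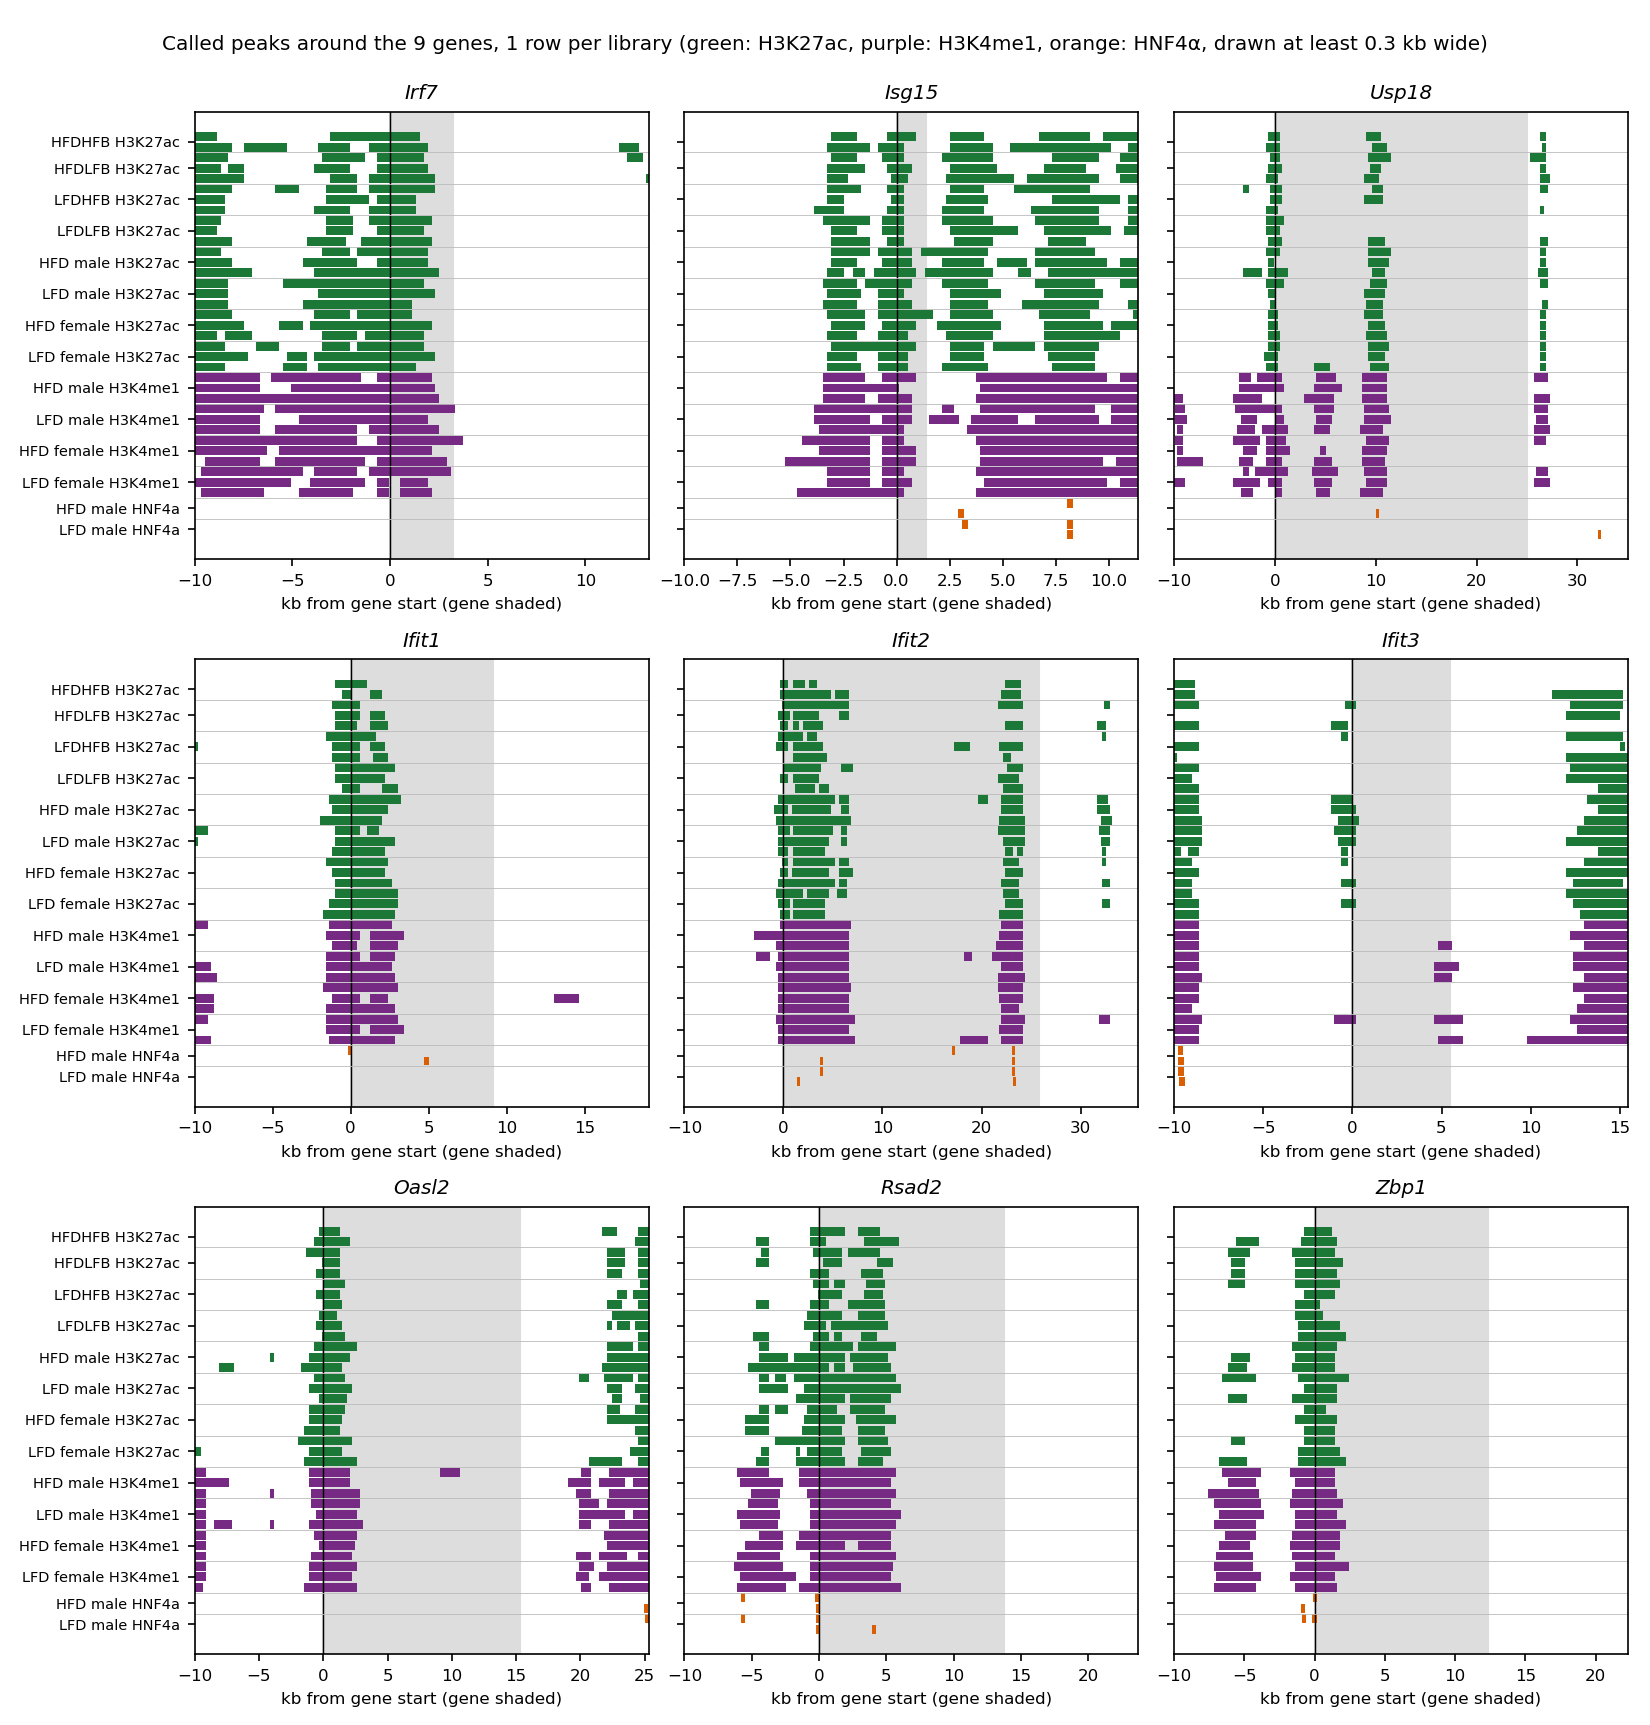
Called peaks around the 9 genes, with the distance from the gene start in kb on the horizontal axes, 1 row per library and the gene shaded. Most genes carry H3K27ac (green) and H3K4me1 (purple) over the start in every library, Ifit3 does so in some libraries, and HNF4α peaks (orange, drawn at least 0.3 kb wide) recur in all 4 libraries at the start of Rsad2 and near the end of Ifit2.

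Each sequence printed above lay within the H3K27ac region, merged over libraries, that covered the gene start. This region had a peak in all 23 H3K27ac libraries for Ifit1 (chr19:34713401-34718600), Usp18 (chr6:121194801-121197200), Rsad2 (chr12:27135201-27146800), Zbp1 (chr2:173042001-173046000) and Isg15 (chr4:155561601-155578800). For Ifit3 the region at the start (chr19:34656801-34658400) had an H3K27ac peak in 12 of 23 libraries. It was present in 3 of 3 HFD and 3 of 3 LFD males, in 2 of 3 HFD and 1 of 3 LFD females, and in 0 of 2 HFDHFB, 2 of 3 HFDLFB, 1 of 3 LFDHFB and 0 of 3 LFDLFB recipients. An H3K4me1 peak was called there in 1 of 12 libraries. The share of the window under H3K27ac was widest for Isg15, with 30.9 to 53.6% in the long-term diets and 29.0 to 48.9% in recipients, and for Irf7, with 27.2 to 42.7% and 21.2 to 41.8%, windows that also hold other genes. Usp18 had 6.22 to 13.3% and 3.11 to 10.7%.

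Among recipients, no window was separated between HFDHFB and HFDLFB in the length covered by H3K27ac, compared with 13.4% in either direction of the windows tested, which are those with a peak in at least 1 library of the comparison. The mean covered length was lower in HFDHFB for 6 of the 9 and higher for 3. For Ifit1, 2000 and 1400 bp in HFDHFB stood against 1800, 2600 and 2600 bp in HFDLFB, and for Oasl2, 3654 and 3854 bp stood against 4854, 3654 and 3854 bp. Both genes thus overlapped between the groups (two-sided exact permutation tests, p = 0.3 and 0.9), and with 2 against 3 libraries such a test cannot go below 0.1. In HFDHFB against LFDHFB, 2 of the 9 were separated, compared with 23.7% of the windows tested in either direction, 21.5% higher and 2.21% lower. The mean covered length was higher in HFDHFB for 8 of the 9, all but Ifit1, and HFDHFB peaks also covered more of the genome, 107 to 132 Mb against 98.8 to 105 Mb in LFDHFB. Ifit1 was lower, with 3200, 3022 and 2800 bp in LFDHFB (exact permutation p = 0.1), and Isg15 was higher, with 8268 and 10468 bp against 7600, 7068 and 7868 bp (exact permutation p = 0.1). In HFDLFB against LFDLFB Zbp1 alone of the 9 was separated, at 4600, 4400 and 4000 bp against 2000, 3000 and 3400 bp, compared with 14.3% of the windows tested in either direction and 13.1% higher. In LFDHFB against LFDLFB none was, compared with 6.85%.

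On the long-term diets, none of the 9 windows was separated in H3K27ac between HFD and LFD males, compared with 5.41% of the windows tested. In females Ifit2 was, with 7800, 7800 and 9200 bp on the HFD against 7600, 7000 and 6600 bp on the LFD, compared with 12.5% of the windows tested in either direction and 11.6% higher. For H3K4me1, Isg15 was separated in males, with 10668, 11068 and 11268 bp on the HFD below 11868, 11868 and 12068 bp on the LFD (1 of 9, compared with 7.77% in either direction and 5.2% lower). In females 3 of 9 were separated, all lower on the HFD, compared with 8.67% of the windows tested in either direction and 2.6% lower. Oasl2 had 7712, 6912 and 8312 bp on the HFD against 9112, 9112 and 8712 bp on the LFD, Rsad2 had 8600, 8800 and 9600 bp against 9800, 10200 and 11200 bp, and Zbp1 had 5600, 5800 and 5600 bp against 6600, 6400 and 6000 bp. The H3K4me1 peaks of all HFD females covered more of the genome than those of any LFD female, 227 to 232 Mb against 221 to 225 Mb, so these 3 windows went the other way from the total. Without the 10 kb extension none of the 3 was separated. In males none of these 3 was separated, and the difference between the sexes was not tested.

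HNF4α peaks overlapped 8 of the 9 windows, all but that of Irf7, in at least 1 of 4 libraries, at 16 regions, and 37.4% of all gene windows held none. A peak in each of the 4 libraries was found in 4 of the 9 windows, those of Ifit2, Ifit3, Isg15 and Rsad2, compared with 26.5% of all gene windows. In all 4 libraries a peak was called at 2 regions. One covered the start of Rsad2 (chr12:27141274-27141611), where it overlapped the sequence printed above, and a peak within 500 bp of the start in all 4 libraries was found for 3.22% of all genes. The other lay in the coding exon of Ifit2 (chr19:34648230-34648541), within the windows of Ifit2 and Ifit3. At the start of Zbp1 (chr2:173044317-173044575, exon and UTR) 1 HFD and 1 LFD library had a peak, and at the start of Ifit1 (chr19:34715189-34715428) 1 HFD library did. Ifit1 had 1 peak in each HFD library, at the start in one and in an intron (chr19:34720103-34720344) in the other, and none in either LFD library. The 3 windows separated in covered length were Ifit1, Ifit2 and Ifit3, all higher on the HFD, compared with 30.5% of the windows tested in either direction and 22.4% higher. For Ifit2 and Ifit3 the difference came from the fixed peak width of each library, 240 and 242 bp on the HFD and 230 and 220 bp on the LFD, as the number of peaks separated Ifit1 alone. The smallest p an exact permutation test allows here, with 2 libraries per diet, is 0.333. None of the 16 regions held CAAAGTCCA, a core of the HNF4 motif, on either strand, and 6.31 to 7.41% of all HNF4α peaks per library did. With so low a share among all peaks, its absence from 16 regions does not set them apart. Only this exact run of letters was searched, so other forms of the motif may be present.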

How the data were processed

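The authors aligned reads to mm9 (per the submitters' processing notes, with Bowtie 0.12.8, Picard 1.110, STAR 2.5 and featureCounts 1.5.0-p1) and deposited 1 table of raw counts per gene, not normalized, and 1 peak list per ChIP-seq library from SICER (histone marks) or HOMER (HNF4α), with positions only. Strand use in counting is not given in the sources used here. Counts were analysed with edgeR 4.0.16 (R 4.3.3): TMM scaling, filterByExpr and the quasi-likelihood test, fitted to all 12 libraries together, with p-values adjusted by Benjamini-Hochberg over 15893 genes. Log2 CPM used a prior count of 2. DESeq2 1.42.0 was an alternative. Peak coverage of each gene locus ± 10 kb was summed in bp with Python, and groups were called separated when no library of one overlapped the other. Sequences came from the mm9 reference. Input libraries were not analysed here. The 9 genes and all lists were chosen with earlier results of these data known. All 9 were named, as were the 5 genes most and 3 least alike. Listed genes were to be named past an adjusted p of 0.05, and there were none. Outside this rule, Ifi27l2a and Cxcl9 were named after their values were seen, and some ligands, receptors and Siglech for their levels. Replicates have a number in the labels and nothing more, so p-values measure the spread between these samples. Scripts were tested on simulated data. Alternatives were other size factors, no filter, DESeq2, fewer groups in the fit, a replicate block, other window extensions and peak widths, and leaving out libraries. The one that left out HFDLFB replicates 1 and 2 was chosen after seeing the data. The list of signalling genes downstream of the receptors is not reported here.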

Additional observations from a re-analysis of the deposited data

How the results depend on the processing

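None of the 9 genes passed an adjusted p of 0.05 in any RNA-seq comparison under the alternatives run (size factors, no filter, DESeq2, fits of fewer groups, the block, omitted libraries). All 9 stayed below 0 in HFDHFB against HFDLFB under all 18 alternatives (medians −0.87 to −0.36), and 8 or 9 did in HFDHFB against LFDHFB. Many of these alternatives could hardly change a direction, because they omitted a library of a group not compared or refitted the same libraries. With 1 library of the 2 compared groups omitted, the median in HFDHFB against HFDLFB ran from −0.87 to −0.43. None of these alternatives left out HFDHFB replicates 1 and 2 together, so they do not show whether the direction holds without both. Those libraries had the lowest mean z scores of the 9 genes, −1.42 and −1.07, against −0.09 in HFDHFB replicate 3. Over all genes edgeR called 0, also with any 1 library omitted. DESeq2 called 80 in HFDHFB against HFDLFB, 126 in HFDHFB against LFDHFB, 9 in HFDLFB against LFDLFB and 72 for the interaction. Without HFDLFB replicates 1 and 2 (chosen after seeing the data, the 1 library left being assumed to vary like the other groups), edgeR called 12, 12 and 3 genes in HFDHFB against HFDLFB, HFDLFB against LFDLFB and the interaction, and in HFDLFB against LFDLFB the log2 fold changes of Ifit1 (0.092), Ifit3 (−0.033), Oasl2 (−0.21) and Zbp1 (−0.24) changed sign. Deviations of same-numbered RNA libraries had r from −0.59 to 0.45 over 18 pairs, 6 of them over 0.1, which does not meet the rule for pairing, and a shared batch is not shown to be absent. The replicate block called 0 of the 9 genes, and changed the sign of Ifit1 in HFDLFB against LFDLFB (0.041). The causes were not tested.

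Of 801 single-gene alternatives 31 changed sign, none of them past the threshold. Many of the 801 omitted a library of a group not compared or refitted the same libraries. The share that changed sign therefore does not measure how stable the signs were. With 1 library omitted, the log2 fold changes that crossed 0 ranged, in LFDHFB against LFDLFB, from −0.58 to 0.80 for Ifit1, −0.63 to 0.12 for Ifit2, −0.36 to 0.26 for Ifit3, −0.73 to 0.066 for Isg15, −0.043 to 0.23 for Irf7 and −0.49 to 0.27 for Rsad2. In HFDLFB against LFDLFB they ranged from −0.39 to 0.61 for Ifit1, −0.43 to 0.32 for Ifit2, −0.62 to 0.19 for Isg15, −0.033 to 0.32 for Oasl2, −0.29 to 0.079 for Irf7, −0.49 to 0.28 for Rsad2 and −0.10 to 0.41 for Zbp1. The others were Ifit3 in HFDHFB against LFDHFB (−0.41 to 0.15) and, for the interaction, Isg15 (−0.73 to 0.13) and Usp18 (−0.16 to 0.77).

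The counts of separated windows were small and moved with most settings. For H3K27ac on the long-term diets, males went from 0 to 1 with peaks of at least 1000 bp, 1 under the replicate block and 0 to 4 with 1 library omitted, and females from 1 to 2 without extension, 0 with 50 kb, 0 with the wide peaks, 2 under the block and 1 to 4. For H3K4me1, males went from 1 to 0 without extension, 0 with the wide peaks, 2 under the block and 1 to 3, and females from 3 to 0 without extension, 0 with 50 kb, 5 under the block and 3 to 5. For H3K27ac in recipients, HFDHFB against HFDLFB went from 0 to 2 under the block and 1 to 4 with 1 library omitted, LFDHFB against LFDLFB from 0 to 0 to 3, HFDHFB against LFDHFB from 2 to 1 without extension, 1 with 50 kb, 4 under the block and 3 to 5, and HFDLFB against LFDLFB from 1 to 0 without extension, 0 with 50 kb and 1 to 4. For HNF4α the count went from 3, all higher, to 2 with 50 kb, both lower on the HFD, 1 by number of peaks and 4 to 6 with 1 library omitted. Smaller groups overlap less by construction. The share of all gene windows that were separated was computed only with the 10 kb extension, all peaks and all libraries, without the block. Whether the counts under the other settings, the block included, differ from those of all gene windows was not tested. These counts therefore cannot be read as particular to the genes examined.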
